A study of Mus musculus with 6 samples.

Results

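Genes of transforming growth factor beta (TGF-β) and bone morphogenetic protein (BMP) signalling were followed by RNA-seq in cultured mouse vascular smooth muscle cells, in 6 libraries. A list of 38 such genes was looked up by symbol among the 54532 genes of the deposited expression table, and all 38 were found. They were grouped by role into 8 ligands, 5 genes of latent complexes and ligand-related proteases, 9 receptors, 6 signal-carrying Smads, 2 inhibitory Smads, 3 secreted antagonists and 5 target genes. Values are FPKM, fragment counts divided by the length of the gene and by library size, so levels may be compared between genes as well as between libraries.

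TGF-β family ligands are secreted dimers that bring together type I and type II receptor kinases on the cell surface. TGF-β itself is stored in the matrix in a latent complex with latent TGF-β binding proteins. TGF-β and activin receptors phosphorylate Smad2 and Smad3, while BMP receptors phosphorylate Smad1, Smad5 and Smad9, and both kinds enter the nucleus with Smad4. In the arterial wall these pathways govern matrix deposition and the contractile state of smooth muscle cells, and inherited defects in their components are known causes of thoracic aortic aneurysm and of pulmonary arterial hypertension.

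The libraries formed 2 groups of 3. The labels give the first, Ad-Con, as wild type cells that received an adenoviral vector with a control plasmid, and the second, Ad-PDK4, as cells that received one with a plasmid overexpressing pyruvate dehydrogenase kinase 4 (PDK4), which phosphorylates and thereby switches off pyruvate dehydrogenase in mitochondria. Collagenase released the cells from abdominal aortas (mice aged 10 weeks), and they were used after several passages. Per the study's methods both groups were also given angiotensin II, which the labels do not mention. The study calls the libraries of a group biological replicates, without saying whether they came from separate cultures or animals, and p-values measure the spread between these libraries. Its methods name a CMV vector with an HA tag for the PDK4 plasmid and do not name the promoter inside the adenovirus.

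Each library held between 17588942 and 21861872 reads, recovered from FPKM and gene length. *Pdk4* itself had 9.50, 10.4 and 10.1 FPKM where the label was Ad-Con and 7.67, 7.40 and 7.38 where it was Ad-PDK4, a log2 fold change of -0.42 (adjusted p = 1.1e-03). The targeted gene thus went against its label. Uncounted insert transcripts and an exchange of the labels, which would turn every direction below, cannot be told apart here. Whether the insert was expressed in these libraries was not tested. Directions are stated by label, Ad-PDK4 relative to Ad-Con. The cell type label was checked against 12 contractile markers. *Acta2*, *Tpm1*, *Tpm2*, *Cald1*, *Smtn* and *Lmod1* passed the filter on low values, but *Myh11*, the defining myosin of mature smooth muscle, had at most 10 reads per library, *Myocd* at most 5 and *Tagln* at most 20. Of the 6 that passed, *Acta2* (78.0 ± 0.95 to 36.2 ± 2.4 FPKM, n = 3) and *Tpm2* were lower and *Cald1* higher (56.0 ± 0.646 to 71.9 ± 2.82 FPKM). Under the filter, *Mylk* had 122 to 188 against 24 to 28 reads, *Cnn1* 20 to 30 against 8 to 17 and *Des* 10 to 16 against 3 to 4. *Myh11*, *Myocd* and *Tagln* overlapped between the groups. The summed markers stood at 241 to 246 against 204 to 221 FPKM. Of 6 fibroblast markers, 5 passed the filter, with *Pdgfra* between 19.0 and 21.3 FPKM in all libraries, and their sum went from 1302 to 1416 FPKM down to 666 to 728, most of it *Col1a1*. *Col1a1*, *Dpt* and *Lum* were lower and *Dcn* higher (90.1 ± 8.20 to 161 ± 19.0 FPKM). Of 8 macrophage markers 2 passed the filter, *Ptprc*, *Tyrobp*, *Itgam* and *C1qa* had 0 reads in all 6 libraries (a count of 0 leaves room for 3 reads by counting error alone), and the sum was 14.97 to 17.9 against 5.91 to 7.44 FPKM, most of it *Cd68*. *Lyz2* (1.51 ± 0.195 against 1.98 ± 0.250 FPKM, adjusted p = 0.079) and *Csf1r*, under the filter (11 to 35 against 56 to 62 reads), stood higher under the Ad-PDK4 label. The 7 endothelial markers, of which *Kdr* alone passed the filter and *Tie1* was at 0, summed to 0.634 to 0.827 against 0.924 to 1.18 FPKM. The part of these marker shifts in the results below was not tested, and in bulk RNA fewer cells of a type cannot be told apart from less RNA per cell.

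To ask which parts of the pathways differed between the labels, limma was fitted to log2(FPKM + 0.1) of the 13423 genes with a mean of at least 0.5 FPKM, and p-values were adjusted over all of them. Of the 38 genes 37 were tested, the exception being *Id4*. At an adjusted p below 0.05, 13 were higher and 9 lower under the Ad-PDK4 label, where 21.8% of all tested genes were higher and 20.8% lower. That is 59.5% of the tested members against 42.7% of all tested genes. The members were chosen with earlier results of these data known, so the shares given here are not a result about the pathways. Requiring a fold change of at least 2 as well, *Ltbp2*, *Nog*, *Fst* and *Inhba* were higher and *Ltbp4*, *Bmp2* and *Id3* lower, which is 18.9% of members where 6.63% of all tested genes were called (3.95% higher and 2.68% lower). *Ltbp2* and *Nog* reached the filter only through the libraries labelled Ad-PDK4, and without them 11 genes were higher and 9 lower of 35, and 14.3% were called at 2-fold. The members' median log2 fold change was -0.03 and their median absolute value 0.32, beside -0.003 and 0.25 over all tested genes. For 26 of the 37 the 2 groups did not overlap (14 higher, 12 lower), as held for 54.3% of all tested genes (27.8% higher, 26.5% lower).

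**Figure D1:**
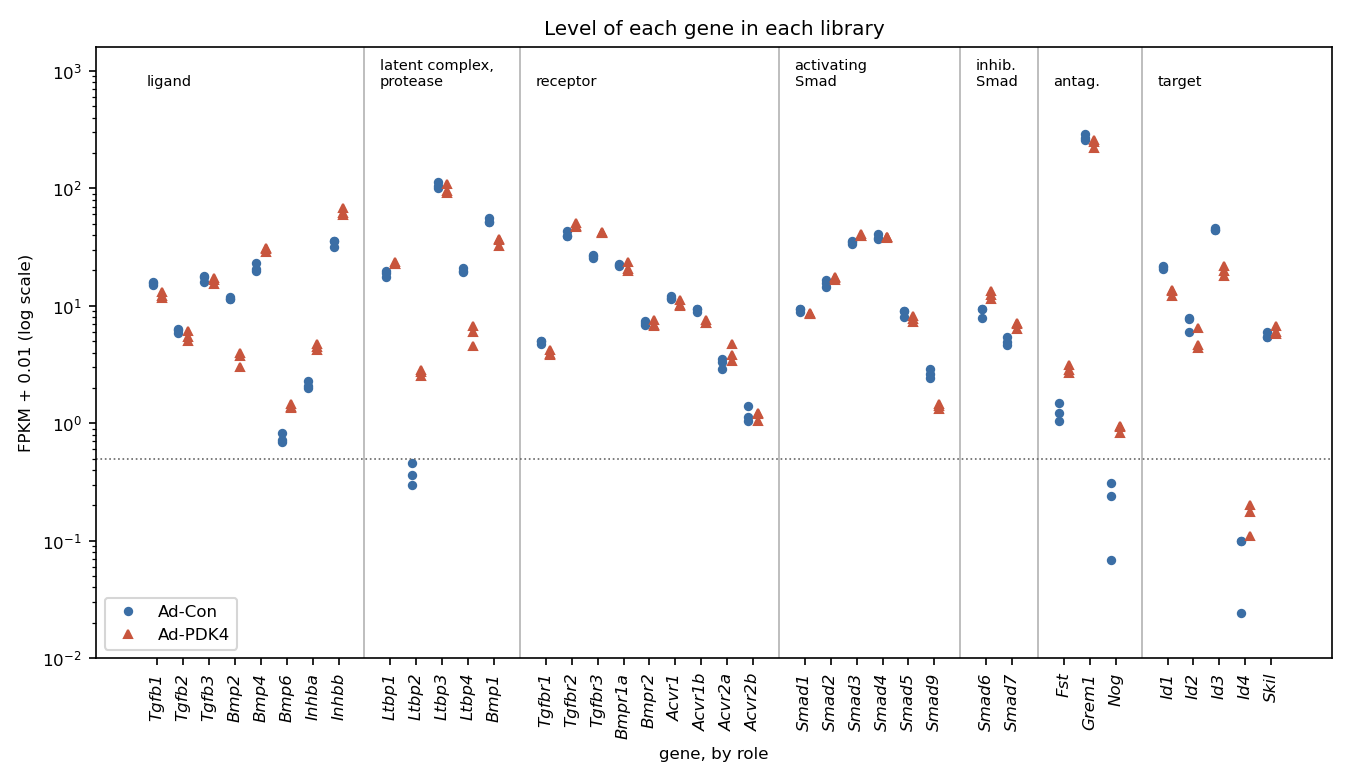
FPKM of each of the 38 genes (log axis, with 0.01 added so that low values can be drawn) in the 3 Ad-Con libraries (blue circles) and the 3 Ad-PDK4 libraries (red triangles), by role. The dotted line marks the filter of 0.5 FPKM, with *Id4* wholly below it, and *Grem1* and *Ltbp3* stand highest in both groups.

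**Figure D2:**
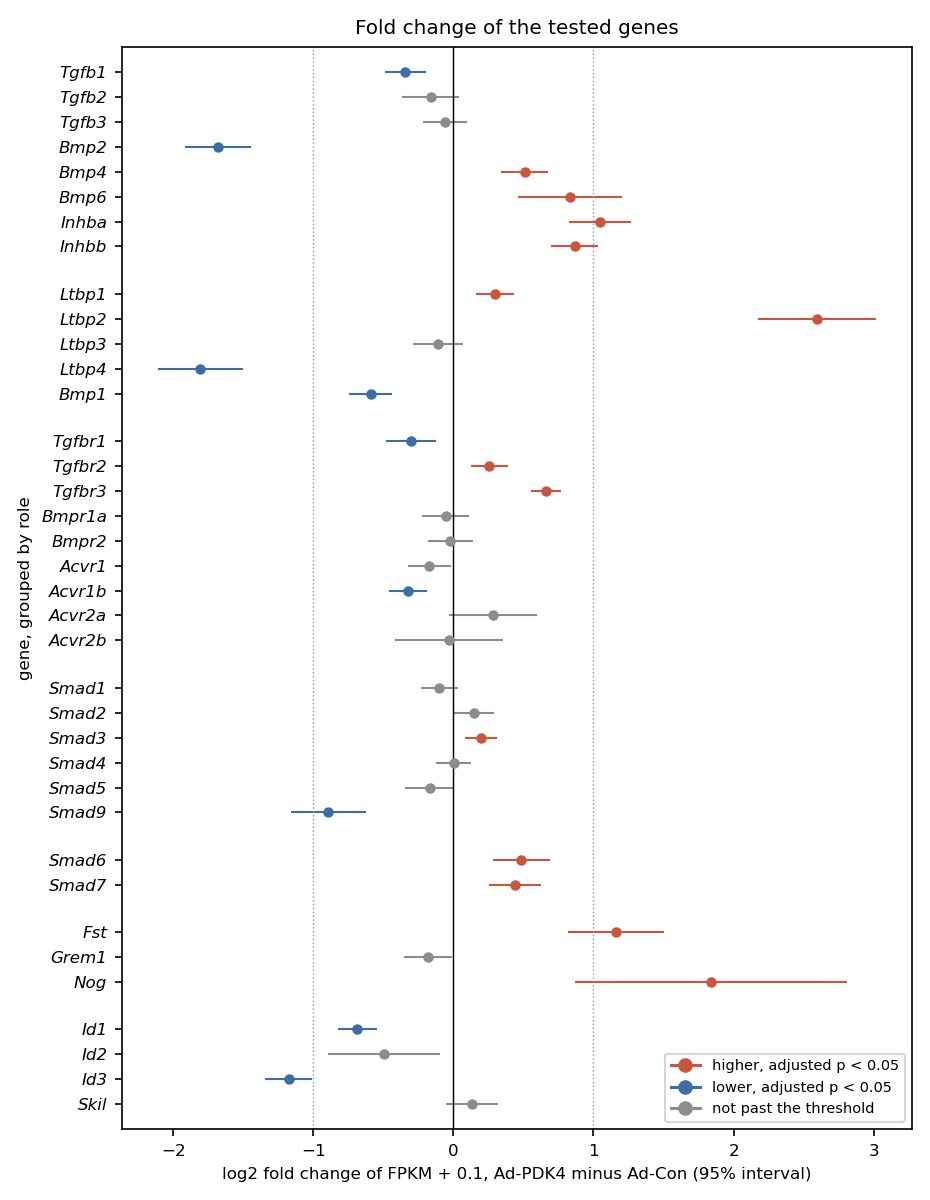
Log2 fold change of the 37 tested genes on the log2(FPKM + 0.1) scale, with 95% intervals not adjusted for multiple testing, in the same order. The 13 genes in red were higher and the 9 in blue lower at an adjusted p below 0.05, and dotted lines mark a 2-fold change, which *Ltbp2* passed upwards and *Ltbp4* and *Bmp2* downwards by the widest margins.

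Among the ligands, *Bmp2* was lower and *Bmp4*, *Bmp6* and both activin subunit genes were higher, while of the 3 TGF-β genes only *Tgfb1* was past the threshold. *Bmp2* (ENSMUSG00000027358, chromosome 2, 133552159 to 133562885, GRCm38) encodes a BMP with a strong bone-inducing action. It had 11.9, 11.4 and 11.4 FPKM in Ad-Con and 3.97, 3.70 and 3.02 in Ad-PDK4 libraries. All 3 values of the second group lay far below the first, and the log2 fold change was -1.68 (SE 0.10, adjusted p = 1.1e-05). *Bmp4* (chromosome 14, 46383520 to 46390669), a close relative of *Bmp2*, moved the other way, from 20.4, 23.3 and 19.7 to 30.3, 30.9 and 28.9 FPKM. The groups were separate, with a log2 fold change of 0.51 (SE 0.07, adjusted p = 9.2e-04). Within a library the level of *Bmp2* over that of *Bmp4* was 0.584, 0.489 and 0.580 in Ad-Con against 0.131, 0.120 and 0.105 in Ad-PDK4 libraries. The ratio, set up after both directions were known, is given as a description. *Bmp6* was the least abundant ligand of the list, at 54, 56 and 50 reads against 97, 99 and 115. Its log2 fold change was 0.83 (SE 0.16, adjusted p = 4.1e-03), or 0.46 with a pseudocount of 1. *Bmp6* shares 224 exonic bases (5.74%) with *Txndc5* on the other strand, which had 4196 to 5659 reads per library, and whether counting used strand is not given in the sources used here, so a share of the *Bmp6* reads cannot be told apart from *Txndc5*.

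*Inhba* and *Inhbb* encode the β subunits whose dimers are activin A and activin B, ligands that signal through Smad2 and Smad3. *Inhbb* (chromosome 1, 119415465 to 119422248) was the most abundant ligand gene of the list in both groups, at 35.9, 35.8 and 31.9 against 61.3, 68.2 and 59.6 FPKM. Every library labelled Ad-PDK4 stood above every library labelled Ad-Con, and the log2 fold change was 0.87 (SE 0.07, adjusted p = 6.1e-05). *Inhba* (chromosome 13, 16011851 to 16031621) was far lower in level and rose from 2.06, 1.98 and 2.28 to 4.47, 4.17 and 4.74 FPKM. These groups were also separate, and the log2 fold change was 1.05 (SE 0.09, adjusted p = 9.5e-05), or 0.81 with a pseudocount of 1. The TGF-β genes moved less. *Tgfb1* (chromosome 7, 25687002 to 25705077) went from 15.8, 15.045 and 15.7 to 11.6, 13.2 and 12.0 FPKM, without overlap and with a log2 fold change of -0.34 (adjusted p = 3.7e-03). For *Tgfb2* the difference was -0.16 (95% interval -0.37 to 0.04, adjusted p = 0.17) and for *Tgfb3* -0.06 (-0.22 to 0.10, adjusted p = 0.51), and in both the groups overlapped. Without Ad-PDK4 replicate 3, *Tgfb2* passed the threshold (-0.24, adjusted p = 0.048). Summed over the 3 genes the level was 37.5 to 39.9 FPKM under the Ad-Con label and 31.9 to 35.8 under the Ad-PDK4 label.

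Windows of 250 bases before the RefSeq start were scanned for 27 of the 38 members. No window was scanned for *Bmp1*, *Bmp2*, *Fst*, *Id1*, *Nog* and *Tgfbr3*, all called with an absolute log2 fold change of at least 0.5. The sequence is shown for the 4 scanned members called at that size whose window held no annotated exon. Sequence and change can thus be read together. Capitals mark matches on either strand to any of 6 motifs. CAGAC is the core of the Smad3 and Smad4 box and GTCTAGAC the palindromic Smad box, GGCGCC with its relative GCCGNCGC are GC-rich letters of the kind bound by BMP Smads, TATAAA is the TATA box and TGACGTCA the cyclic AMP response element. The strand is that of the gene, and coordinates are on GRCm38.p6.
Inhba, chr13:16011601-16011850 (+): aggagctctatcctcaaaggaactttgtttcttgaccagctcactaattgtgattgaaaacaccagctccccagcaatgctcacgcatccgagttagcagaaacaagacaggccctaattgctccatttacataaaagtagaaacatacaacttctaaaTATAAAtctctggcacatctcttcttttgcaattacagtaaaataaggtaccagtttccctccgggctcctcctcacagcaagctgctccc
Inhbb, chr1:119422249-119422498 (-): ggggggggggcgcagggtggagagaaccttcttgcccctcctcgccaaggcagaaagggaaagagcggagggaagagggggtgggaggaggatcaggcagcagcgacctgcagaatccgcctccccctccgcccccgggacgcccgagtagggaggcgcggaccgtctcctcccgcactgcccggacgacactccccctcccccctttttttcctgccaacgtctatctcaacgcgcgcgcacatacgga
Bmp4, chr14:46390670-46390919 (-): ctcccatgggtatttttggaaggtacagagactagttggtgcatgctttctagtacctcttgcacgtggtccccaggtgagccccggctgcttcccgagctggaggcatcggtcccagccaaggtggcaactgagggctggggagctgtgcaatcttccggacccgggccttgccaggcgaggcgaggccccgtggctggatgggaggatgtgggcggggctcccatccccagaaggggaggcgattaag
Smad9, chr3:54755332-54755581 (+): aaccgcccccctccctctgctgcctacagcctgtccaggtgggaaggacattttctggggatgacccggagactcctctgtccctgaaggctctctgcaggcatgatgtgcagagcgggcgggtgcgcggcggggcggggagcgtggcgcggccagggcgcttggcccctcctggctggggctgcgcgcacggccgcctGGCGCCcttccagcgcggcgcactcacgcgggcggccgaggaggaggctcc
The 2 activin genes, which both rose, had windows of different base composition, with 43.2% G and C for *Inhba* and 68.0% for *Inhbb*. *Inhba* held a TATAAA, as do 12.4% of the 32817 RefSeq windows of this length. *Smad9* held a GGCGCC, found in 9.59% of windows. No match to any of the 6 motifs was found for *Inhbb* or *Bmp4*, which says only that these letters are not in these windows. Over the 27 members whose windows were scanned, 10 held CAGAC, found in 42.2% of all windows. The letters GGCGCC were in 7 members, GCCGNCGC in 8 (6.89% of all windows) and TATAAA in 2. For TGACGTCA it was 1 member (1.55% of all windows) and for GTCTAGAC 0 (0.168%). Some pairs of motifs can overlap, as GGCGCC and GCCGNCGC share letters. A match is a description of the sequence and not a site of binding.

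Latent TGF-β binding proteins are large matrix glycoproteins of the fibrillin superfamily. In these cells *Ltbp1* and *Ltbp2* were higher, *Ltbp4* was lower and *Ltbp3* did not pass the threshold. *Ltbp2* (chromosome 12, 84783212 to 84876532), whose protein binds fibrillin but is known not to carry TGF-β, had 0.354, 0.452 and 0.290 FPKM in Ad-Con against 2.51, 2.73 and 2.81 in Ad-PDK4 libraries. The read counts behind these were 59, 65 and 43 against 374, 391 and 508. On the other strand it shares 764 exonic bases (9.34%) with *D030025P21Rik*, which had at most 7 reads per library. No library came near the other group, and the log2 fold change of 2.59 (SE 0.18, adjusted p = 2.5e-05) was the widest of the list. With a pseudocount of 1 it was 1.43, less wide than those of *Ltbp4* (-1.66) and *Bmp2* (-1.47). *Ltbp4* (chromosome 7, 27305136 to 27337692), which binds TGF-β1 and is needed to assemble elastic fibres, went from 19.7, 21.2 and 19.5 down to 5.94, 6.72 and 4.58 FPKM. The groups were separate, with a log2 fold change of -1.81 (SE 0.13, adjusted p = 3.9e-05). The level of *Ltbp4* was 46.8 to 67.3 times that of *Ltbp2* in Ad-Con and 1.63 to 2.46 times in Ad-PDK4 libraries, likewise a description. *Ltbp1* rose from 17.6, 19.7 and 18.8 to 22.9, 23.5 and 22.5 FPKM (log2 fold change 0.30, adjusted p = 4.4e-03). *Ltbp3* was by level the leading gene of the family, at 104, 113 and 102 against 94.3, 109 and 91.4 FPKM, and its groups overlapped (log2 fold change -0.11, 95% interval -0.29 to 0.07, adjusted p = 0.29). Without Ad-PDK4 replicate 2, *Ltbp3* passed the threshold (-0.19, adjusted p = 0.039). Because of it, the summed level of the family, 140 to 154 against 121 to 142 FPKM, overlapped too. *Bmp1* (chromosome 14, 70474558 to 70520234) encodes not a growth factor but the procollagen C-proteinase, which also releases ligands from their antagonists. It fell from 51.5, 56.3 and 51.3 to 36.3, 36.8 and 32.4 FPKM, without overlap (log2 fold change -0.59, SE 0.07, adjusted p = 3.0e-04).

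**Figure D3:**
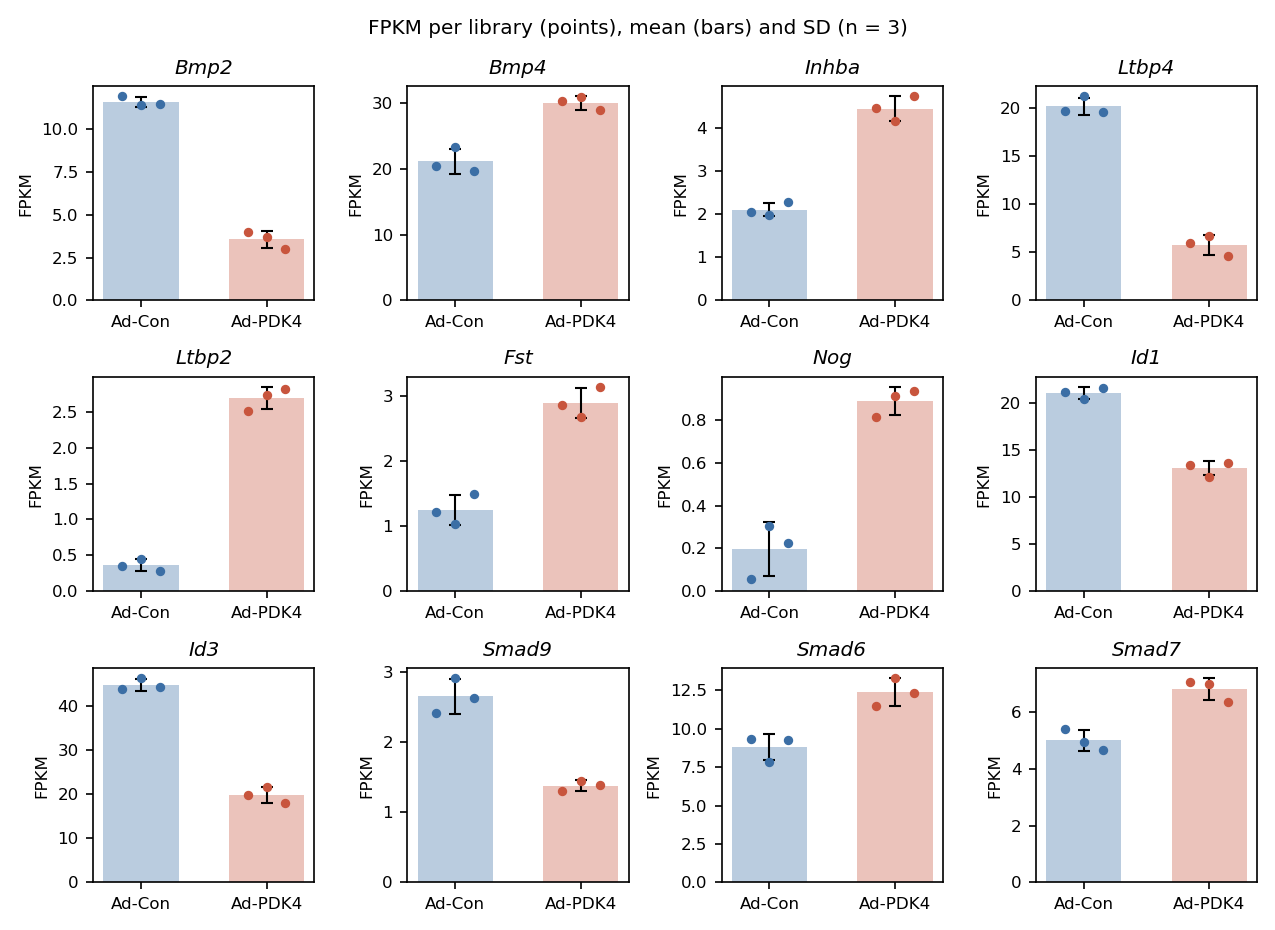
FPKM of 12 of the genes in each library (points), with the group mean (bars, from 0) and SD (n = 3). *Bmp2*, *Ltbp4*, *Id1*, *Id3* and *Smad9* were lower and the other 7 higher under the Ad-PDK4 label, with no overlap between the groups in any panel. The 12 were picked from the called genes by no set rule, so that lack of overlap is not a result. Over all tested genes 54.3% did not overlap.

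Receptor genes changed by less than 2-fold throughout, with 2 higher and 2 lower of 9 at an adjusted p below 0.05 (44.4%, where 42.7% of all tested genes were called). *Tgfbr3* (chromosome 5, 107106570 to 107289629) encodes betaglycan, a coreceptor without a kinase that presents TGF-β2 and also binds inhibin. It rose from 27.0, 26.8 and 25.7 to 41.6, 42.4 and 41.9 FPKM, a tight and separate pair of groups (log2 fold change 0.66, SE 0.05, adjusted p = 2.4e-05). *Tgfbr2*, the type II receptor of TGF-β, was the most abundant receptor gene and rose from 39.6, 43.2 and 39.1 to 47.7, 50.6 and 47.3 FPKM (log2 fold change 0.26, adjusted p = 8.3e-03). Its type I partner *Tgfbr1* was lower, at 5.05, 5.02 and 4.72 against 3.89, 3.81 and 4.23 FPKM (log2 fold change -0.30, adjusted p = 0.014). That call was lost without Ad-Con replicate 1 (-0.29, adjusted p = 0.053) and without Ad-PDK4 replicate 1 (-0.29, adjusted p = 0.052), and over all alternatives the adjusted p ran from 5.09e-03 to 0.053. The level of *Tgfbr3* over *Tgfbr1* was 5.34 to 5.44 under the Ad-Con label and 9.92 to 11.1 under the Ad-PDK4 label, also a description. *Acvr1b*, the activin type I receptor, went from 9.34, 8.83 and 9.31 to 7.16, 7.58 and 7.16 FPKM, without overlap (log2 fold change -0.32, adjusted p = 3.5e-03).

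The other receptor genes did not pass the threshold. The BMP type I receptor *Bmpr1a* had 22.2 ± 0.392 against 21.5 ± 2.07 FPKM (mean ± SD, n = 3) and the type II receptor *Bmpr2* 7.13 ± 0.288 against 7.03 ± 0.418. Their log2 differences were -0.05 (95% interval -0.22 to 0.11) and -0.02 (-0.18 to 0.14), so a change of 2-fold lies outside both intervals. *Acvr1*, a type I receptor for BMPs, had 11.3, 11.7 and 12.1 against 11.2, 9.97 and 10.1 FPKM, which did not overlap (log2 fold change -0.17, adjusted p = 0.068), and without Ad-PDK4 replicate 1 it passed the threshold (-0.22, adjusted p = 0.044). The activin type II receptors *Acvr2a* (0.28, 95% interval -0.03 to 0.59) and *Acvr2b* (-0.03, -0.42 to 0.35) overlapped between the groups. *Acvr2a* shares 446 exonic bases (7.84%) with *Orc4* on the other strand, which had 499 to 932 reads per library. As the use of strand in counting is not given, a share of the *Acvr2a* reads cannot be told apart from *Orc4*. *Acvr2b* was the least abundant receptor gene, on 72 to 112 reads per library.

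Of the Smads that carry the signal, *Smad9* was lower and *Smad3* slightly higher, while *Smad1*, *Smad2*, *Smad4* and *Smad5* did not pass the threshold. *Smad9* (ENSMUSG00000027796, chromosome 3, 54755582 to 54801257), the least abundant of the 3 BMP Smads, went from 2.41, 2.91 and 2.63 to 1.30, 1.45 and 1.38 FPKM. Its groups were separate, with a log2 fold change of -0.89 (SE 0.12, adjusted p = 6.1e-04). *Smad1* had -0.10 (95% interval -0.23 to 0.03, adjusted p = 0.19) and *Smad5* -0.17 (-0.34 to 0.00, adjusted p = 0.10). The sum of the 3 BMP Smads was 19.8 to 21.0 FPKM under the Ad-Con label and 17.1 to 18.1 under the Ad-PDK4 label. On the TGF-β side, *Smad3* (chromosome 9, 63646767 to 63757994) had 34.8, 35.7 and 33.4 against 39.2, 41.0 and 39.1 FPKM (log2 fold change 0.20, adjusted p = 0.014), and its call was lost without Ad-Con replicate 3 (0.17, adjusted p = 0.062, the highest of the alternatives, the lowest being 5.11e-03). *Smad2* had 15.5 ± 1.04 against 17.1 ± 0.427 FPKM (n = 3, log2 fold change 0.14, adjusted p = 0.10). The common partner *Smad4* stood at 38.4 ± 2.18 and 38.4 ± 0.306 FPKM, with a 95% interval of the log2 difference from -0.12 to 0.13.

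Both inhibitory Smads, which block receptor signalling and are themselves induced by it, were higher, where 21.8% of all tested genes were called higher. *Smad6* (chromosome 9, 63953076 to 64022059), which acts mainly on the BMP branch, had 9.35, 7.87 and 9.29 FPKM in Ad-Con against 11.5, 13.3 and 12.4 in Ad-PDK4 libraries. *Smad7*, which acts on both branches, had 5.39, 4.95 and 4.67 against 7.06, 7.002 and 6.36 FPKM. Neither gene overlapped between the groups, where 27.8% of all tested genes were higher without overlap. The log2 fold changes were 0.48 (SE 0.09, adjusted p = 3.1e-03) and 0.44 (SE 0.08, adjusted p = 3.4e-03).

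Secreted antagonists bind ligands outside the cell. Of the 3 in the list *Fst* and *Nog* were higher, where 21.8% of all tested genes were. *Nog* reached the filter only through the libraries labelled Ad-PDK4. *Fst* (chromosome 13, 114452290 to 114458951) encodes follistatin, which sequesters activins. It had 1.22, 1.03 and 1.49 FPKM against 2.85, 2.68 and 3.13, without overlap (log2 fold change 1.16, SE 0.15, adjusted p = 5.7e-04), or 0.79 with a pseudocount of 1. The summed level of the activin genes *Inhba* and *Inhbb* was 22.9 to 36.7 times that of *Fst* under the Ad-Con label and 20.6 to 27.0 times under the Ad-PDK4 label, and these ranges overlapped. *Nog* (chromosome 11, 89300638 to 89302332) encodes noggin, an antagonist of BMP2 and BMP4. It rested on 2, 9 and 7 reads against 25, 27 and 35, or 0.196 ± 0.125 against 0.885 ± 0.0658 FPKM. The groups were separate, but the log2 fold change of 1.84 (SE 0.42, adjusted p = 9.4e-03) was 0.66 with a pseudocount of 1. *Grem1* (chromosome 2, 113746164 to 113758646), another BMP antagonist, was the most abundant of the 38 genes at 271, 292 and 260 against 250, 219 and 258 FPKM. It was lower in every library labelled Ad-PDK4 but did not pass the threshold (log2 fold change -0.18, adjusted p = 0.083), whereas with limma-voom on the recovered reads it did (-0.18, adjusted p = 0.017, up to 0.22 in the other alternatives).

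The Id genes encode helix-loop-helix proteins without a DNA-binding basic region, which hold back differentiation factors, and are classical direct targets of BMP Smads. *Id3* (ENSMUSG00000007872, chromosome 4, 136143497 to 136145755) went from 43.8, 46.3 and 44.3 to 19.9, 21.7 and 17.95 FPKM, with a log2 fold change of -1.17 (SE 0.07, adjusted p = 1.3e-05). *Id1* (chromosome 2, 152736251 to 152737410) went from 21.2, 20.4 and 21.6 to 13.4, 12.2 and 13.6 FPKM (log2 fold change -0.69, SE 0.06, adjusted p = 8.1e-05). In both genes the groups lay well apart. *Id2* had 5.97, 7.76 and 7.94 against 4.35, 4.64 and 6.41 FPKM, where Ad-PDK4 replicate 3 lay inside the range of the other group (log2 fold change -0.49, adjusted p = 0.051). *Id2* passed the threshold in 7 of 16 alternatives. Among them were the fits without Ad-PDK4 replicate 3 (-0.66, adjusted p = 8.87e-03) and without Ad-Con replicate 1 (-0.62, adjusted p = 0.025). In the other 9 the adjusted p reached 0.15. *Id4* had 7, 6 and 1 against 7, 13 and 14 reads and was not tested. The 4 Id genes summed to 71.1, 74.6 and 73.9 FPKM against 37.8, 38.7 and 38.1. *Skil*, a corepressor of Smads that TGF-β is known to induce, had 5.46, 5.95 and 5.43 against 5.997, 5.78 and 6.72 FPKM, with overlap (log2 fold change 0.13, 95% interval -0.05 to 0.32, adjusted p = 0.23).

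The rest of the pathways was read from 7 lists of 115 other genes, of which 78 passed the filter, with 24 higher and 27 lower (65.4%, against 42.7% of all tested genes). The lists were chosen with earlier results of these data known. This share and those of the single lists below are therefore not a result about the pathways. Without the 4 that reached the filter through 1 group alone, 22 were higher and 26 lower of 74. The 37 genes below the filter included *Mstn*, *Nodal* and *Bmp10*, each at 0 reads in all 6 libraries. Among other ligands, 2 were higher and 2 lower of 8 tested (50%, near the 42.7% of all tested genes). *Gdf15*, a stress-induced member of the family, rose from 4.99 ± 0.283 to 9.68 ± 0.884 FPKM (n = 3, log2 fold change 0.94, adjusted p = 9.3e-05), and *Lefty1*, an inhibitor of nodal, fell by 0.43 on the log2 scale (adjusted p = 1.7e-03). *Gdf6* (1.05, adjusted p = 0.024) and *Bmp7* (-0.86, adjusted p = 0.035) rested on 15 to 57 and 22 to 81 reads per library, and *Gdf6* and *Bmp7* each reached the filter through 1 group alone. *Gdf6* lost its call without Ad-Con replicate 1 (1.02) or 2 (0.94). *Bmp7* lost it in each fit without 1 library (-0.95 to -0.69, adjusted p up to 0.13), other than that without Ad-PDK4 replicate 3. Both lost it with the replicate number as a block (adjusted p = 0.057 and 0.055).

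Other receptors and coreceptors numbered 7 tested, with 2 higher and 4 lower (85.7%, against 42.7% of all tested genes). *Eng*, the coreceptor endoglin, rose from 57.4, 53.3 and 53.0 to 87.1, 92.3 and 83.1 FPKM (log2 fold change 0.68, SE 0.06, adjusted p = 6.7e-05). *Bmpr1b*, a BMP type I receptor, rose by 1.14 (adjusted p = 0.011) on 29 to 129 reads, and reached the filter through the Ad-PDK4 libraries alone. Repulsive guidance molecules are BMP coreceptors, and *Rgma* (-0.63, adjusted p = 7.5e-04) and *Rgmb* (-0.23, adjusted p = 0.020) were lower, as was their receptor *Neo1* (-0.30, adjusted p = 2.3e-03). None of the 3 overlapped between the groups, as held for 54.3% of all tested genes. They were picked as the largest called falls, so that lack of overlap is not a result. *Rgmb* lost its call without Ad-Con replicate 1 or 2 or Ad-PDK4 replicate 1 (adjusted p = 0.051 to 0.077).

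Of the other secreted antagonists and modulators 7 were higher and 3 lower of 12 tested, where 21.8% of all tested genes were higher and 20.8% lower. *Bmper*, a secreted modulator of BMP activity, rose from 2.83, 2.79 and 2.98 to 8.52, 9.52 and 8.75 FPKM (log2 fold change 1.60, SE 0.07, adjusted p = 2.5e-06). *Crim1*, a membrane protein that binds BMPs, rose from 37.7 ± 2.99 to 89.6 ± 5.19 FPKM (n = 3, 1.25, adjusted p = 8.0e-06), and *Dcn*, the TGF-β-binding proteoglycan decorin, by 0.83 (adjusted p = 4.0e-04). The lower ones were *Nbl1*, a BMP antagonist (-1.08, adjusted p = 8.1e-06), *Htra1*, a secreted protease (-0.82, adjusted p = 9.3e-06), and *Fstl1* (-0.25, adjusted p = 0.010). In these 6 genes the groups did not overlap. They were picked as the largest called changes of the list, so that lack of overlap is not a result. Over all tested genes 54.3% did not overlap.

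Genes that store or activate latent TGF-β were higher in 3 and lower in 4 of 10 tested (70.0%, against 42.7% of all tested genes). *Thbs1*, encoding thrombospondin-1, an activator of the latent complex, rose from 27.1, 28.2 and 25.9 to 62.3, 68.7 and 70.5 FPKM (log2 fold change 1.31, SE 0.06, adjusted p = 3.1e-06). *Lrrc32*, encoding the cell surface anchor GARP, rose by 0.94 (adjusted p = 3.2e-05). *Tll1*, a protease of the same family as *Bmp1*, rose from 0.621 ± 0.0542 to 2.71 ± 0.28 FPKM (n = 3, 1.96, adjusted p = 3.1e-05), in the opposite direction to *Bmp1*. *Mmp2* fell from 306, 353 and 304 to 136, 139 and 129 FPKM (-1.25, adjusted p = 6.5e-06), and with it its activator *Mmp14* (-0.67, adjusted p = 6.1e-05) and the integrin subunit *Itgav* (-0.37, adjusted p = 2.7e-03).

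**Figure D4:**
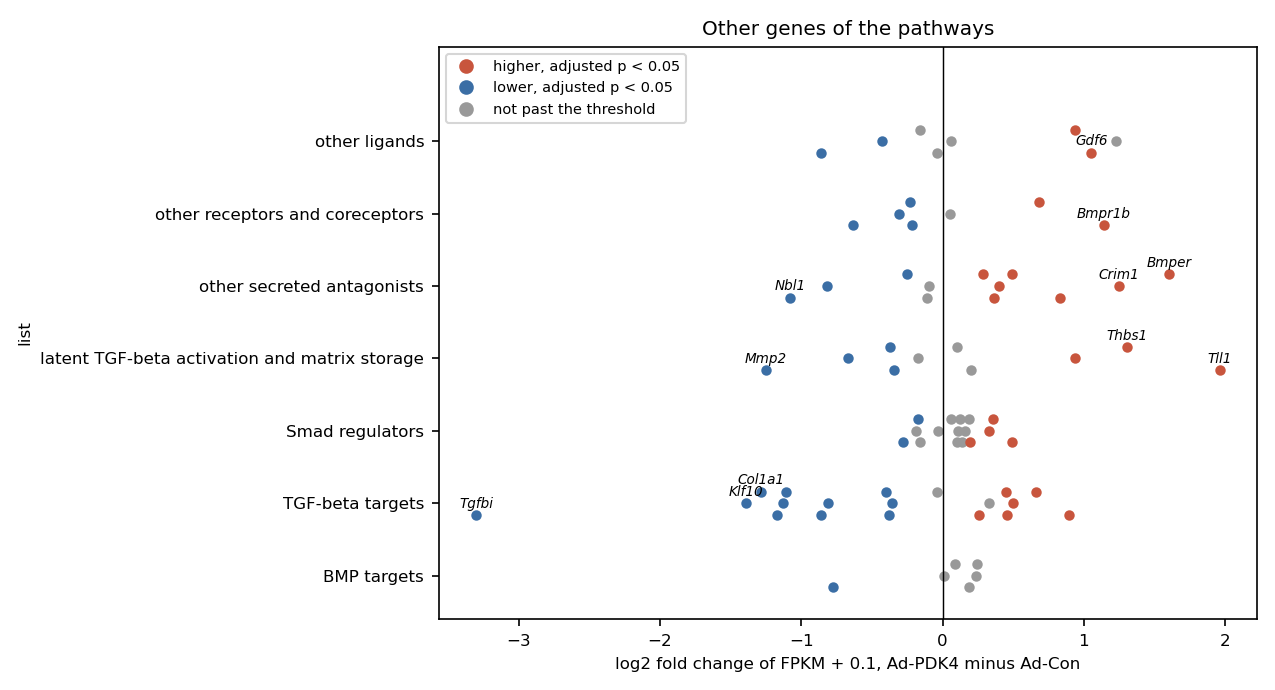
Log2 fold change, on the log2(FPKM + 0.1) scale, of the 78 tested genes of 7 other pathway lists (1 point a gene, with small vertical offsets for legibility), coloured by direction at an adjusted p below 0.05. TGF-β targets run from *Tgfbi* at -3.30 to *Lox* at 0.89, while Smad regulators lie within -0.28 and 0.49.

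Regulators of Smads showed small differences, with 4 higher and 2 lower of 16 (37.5%, below the 42.7% of all tested genes). *Pmepa1*, a TGF-β-induced inhibitor of Smad2 and Smad3, rose by 0.49 (adjusted p = 7.5e-04), the ubiquitin ligase *Smurf2* by 0.36 (adjusted p = 1.5e-03) and the corepressor *Ski* by 0.33 (adjusted p = 0.011). *Trim33* fell by 0.28 (adjusted p = 0.012). *Tgif1* had -0.17 (adjusted p = 0.038), a call lost in 10 of 16 alternatives (adjusted p up to 0.13), including every fit without 1 library.

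Genes commonly used as TGF-β targets were spread in both directions, with the wider changes downwards. Of 19 tested, 6 were higher and 11 lower (89.5%, against 42.7% of all tested genes). At 2-fold 0 were higher and 6 lower, where 3.95% of all tested genes were higher and 2.68% lower. Besides *Tgfbi*, *Klf10* and *Col1a1*, the 6 were *Fn1* (-1.17), *Snai2* (-1.13) and *Acta2* (-1.11). *Tgfbi*, a matrix protein, fell from 19.5, 20.6 and 22.0 to 2.27, 1.95 and 1.81 FPKM (log2 fold change -3.30, SE 0.09, adjusted p = 2.0e-07), the widest change of the list. *Lox*, the collagen and elastin crosslinking enzyme, rose by 0.89 (adjusted p = 1.4e-05), *Angptl4* by 0.66 (adjusted p = 4.7e-04) and *Ctgf*, a matricellular protein gene, by 0.50 (adjusted p = 7.8e-04). *Klf10*, an early TGF-β response factor, had -1.39 (adjusted p = 1.5e-06) and *Col1a1*, a chain of collagen I, -1.28 (adjusted p = 1.3e-05). Among 6 tested BMP targets outside the Id family 1 was past the threshold (16.7%, below the 42.7% of all tested genes). It was *Atoh8*, at 9.78, 10.3 and 11.0 against 6.60, 5.70 and 5.76 FPKM (-0.77, SE 0.08, adjusted p = 1.9e-04). The other 5 had values of 0.01 for *Unc5b*, 0.09 for *Runx2*, 0.19 for *Msx1*, 0.23 for *Dlx2* and 0.24 for *Msx2*, with adjusted p from 0.16 to 0.94. These 5 were added after their values were seen.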

How the data were processed

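The labels name fastp, HISAT2 2.0.5, featureCounts 1.5.0-p3 and DESeq2 1.20.0 in the submitters' processing notes, with the build GRCm39. Coordinates in the deposited table were those of GRCm38, since 98.3% of 54409 gene identifiers had the same ones in GENCODE release M21 (37 of the 38 members). The authors deposited FPKM per gene and library, with replicates not pooled and library sizes already scaled between libraries. FPKM times gene length came out as whole reads (tolerance 0.01) for 100% of non-zero values. Since the unit was FPKM, limma 3.58.1 in R 4.3.3 was run on log2(FPKM + 0.1) on all 6 libraries with group as the single term. Variances were moderated with a trend and robustly, and the Benjamini-Hochberg adjustment covered the 13423 genes with a mean of at least 0.5 FPKM. Fold changes are on that scale, which understates those of low genes. The fit was tested on simulated data. Calls needed an adjusted p below 0.05, and separately a 2-fold change as in the study.

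The members and gene lists were chosen with earlier results of these data known. Named were all members, *Pdk4*, markers of each cell type (not all of them outside the contractile list) and, per other list, the 3 largest called rises and falls. A further TGF-β target was left out of the list and all its counts and is not reported here. *Mstn*, *Nodal*, *Bmp10* and the BMP targets other than *Atoh8* were added after their values were seen. Alternatives were other pseudocounts, filters, scalings and moderation, a replicate block, limma-voom on the recovered reads, and leaving out each library. Promoter windows came from RefSeq (GRCm38.p6). No pair of libraries agreed within sampling noise (chi-square per degree of freedom 4.17 or more). Within a group it was 11.7 between Ad-PDK4 replicates 2 and 3 and 4.17 to 5.44 in the other pairs.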

Additional observations from a re-analysis of the deposited data

How the results depend on the processing

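Of the 22 called members, 20 kept their direction and their side of the threshold in all alternatives that gave a value, the exceptions being *Tgfbr1* and *Smad3* as given above. With a minimum mean of 5 FPKM fewer genes are tested, and 8 members were higher, 0 of them by 2-fold, as were 3 other pathway genes by 2-fold (6 otherwise). With a pseudocount of 1, which compresses low values, 1 member was higher by 2-fold. The counts of members lower, of members lower by 2-fold and of other pathway genes lower or higher stayed within 1.5 times in all alternatives. Besides the gained calls given above, *Acvr1* (-0.24), *Smad1* (-0.16) and *Smad5* (-0.22) passed the threshold with quantile normalization, *Smad2* (0.19) with TPM scaling and *Acvr2a* (0.30) with limma-voom. Direction changed for genes near 0 and past no threshold. With TPM scaling *Bmpr2* had 0.0192 and *Acvr2b* 0.0049. With quantile normalization *Smad4* had -0.0636, *Smtn* -0.0335 and *Tpm1* -0.0118, and with the median of ratios *Smad4* had -0.0004. Fits without 1 library ranged from -0.0686 to 0.0104 for *Bmpr2*, -0.1114 to 0.0845 for *Acvr2b*, -0.0292 to 0.0478 for *Smad4*, -0.0244 to 0.0436 for *Smtn* and -0.0247 to 0.0465 for *Tpm1*. Depth limits *Nog*, *Bmp6* and *Id4*. *Nog* fell under the filter without any 1 library labelled Ad-PDK4.

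Same-numbered libraries did not deviate together (correlations of -0.05, -0.03 and -0.001). With so few libraries a group this cannot exclude that they were matched. With the replicate block 13 members were higher and 10 lower, as *Id2* passed the threshold (-0.49, adjusted p = 0.012). Of the named pathway genes *Gdf6*, *Bmp7* and *Tgif1* lost theirs. The block moved no count of calls by over 1.5 times.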

Other observations

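*Eln*, encoding elastin, lay below the filter and had 10, 13 and 14 Ad-Con reads and 2, 1 and 2 Ad-PDK4 reads. *Postn*, encoding periostin and also below the filter, had 39, 47 and 35 against 3, 1 and 2. Both genes are on the list of TGF-β targets, were chosen here after their values were seen, and were not tested.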
